A study of Mus musculus with 9 samples.

Results

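Transcripts of 10 genes that control the shape and movement of mitochondria were followed in mouse CD8+ T cells that had or had not taken up labelled mitochondria from stromal cells. The genes were listed by name and read from the deposited gene annotation: Mfn1, Mfn2 and Opa1 for fusion, Dnm1l, Fis1 and Mff for fission, and Rhot1, Rhot2, Trak1 and Trak2 for transport. They are 10 of the 55421 genes in the deposited count table. All 10 passed the filter on low counts and were among the 15711 genes tested, with 1286 to 7932 reads per gene and library.

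RNA sequencing of ribosomal RNA-depleted total RNA was carried out on splenic T cells of a mouse line named Pmel Ly5.1 in the labels. It combines a transgenic T-cell receptor (Pmel) with the Ly5.1 allele of CD45, and all 3 groups share it. MitoPositive cells (3 libraries) were CD8+ T cells that had spent 36 h with DM5 cells and were then sorted as DsRed-positive. DM5 is an immortalized line of bone marrow stromal cells, and its mitochondria carried the red fluorescent protein DsRed. MitoNegative cells (3 libraries) came from the same kind of co-culture and were sorted as DsRed-negative. Monoculture cells (3 libraries) were the control without stromal cells, and no sort by DsRed is given for them. The stromal cells are thus a single line, and the sort reads the DsRed label rather than the amount of stromal RNA. Each group had libraries lettered B, C and D. The labels do not say that the letters are separate animals or cultures, so p-values here measure only how far these libraries vary, and that variation may be technical. The titles also carry a time of 0 h that is not explained.

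Mitochondria form a network that is joined by fusion and divided by fission. The mitofusins Mfn1 and Mfn2 are outer-membrane GTPases that join outer membranes, and Opa1 joins inner membranes and shapes cristae, while the dynamin-related GTPase DRP1, encoded by Dnm1l, is recruited by outer-membrane proteins such as Mff to divide the organelle. The Miro GTPases, encoded by Rhot1 and Rhot2, sit in the outer membrane and bind calcium, and the TRAK adaptors, encoded by Trak1 and Trak2, link them to kinesin and dynein motors on microtubules. Effector CD8+ T cells are known for divided mitochondria and memory cells for fused ones, and Miro1 in donor stromal cells has been tied to the passage of mitochondria to other cells.

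Total counts per library were 53546152 to 74722832. Levels are given as CPM, the counts scaled to a common library size, with library sizes normalised by trimmed mean of M-values (TMM), and changes as log2 fold changes with the standard error (SE) from edgeR's quasi-likelihood test. A gene was called changed at a Benjamini-Hochberg adjusted p under 0.05 over the 15711 genes, and n = 3 per group throughout. All 10 CD8+ T-cell markers were detected in every group, and Cd8a stood at 1152 to 1273 CPM in MitoPositive, 1189 to 1319 CPM in MitoNegative and 1066 to 1253 CPM in monoculture. RNA of other cells was also present. The 16 stromal markers summed to 13.9 to 35.7 CPM in MitoPositive and 13.4 to 38.2 CPM in MitoNegative libraries, against 0.901 to 1.31 CPM in monoculture, where 9 of them, Col1a2, Sparc and Pdgfra included, were at 0. The 7 B-cell markers summed to 276 to 307 CPM in MitoPositive, 365 to 458 CPM in MitoNegative and 676 to 749 CPM in monoculture. Between MitoPositive and MitoNegative cells 0 of the 10 CD8+ T-cell markers, 0 of 14 tested stromal markers and 1 of 7 B-cell markers, Ighm, which was lower, were called.

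MitoPositive and MitoNegative cells had much the same levels of the 10 genes. None of the 10 was called between them by edgeR, where 0.165% of all tested genes were called. None had an unadjusted p under 0.05 in that fit either, beside 10.5% of all tested genes. That fit and the intervals below leave out the letter. DESeq2 and limma voom also called 0 of the 10. The median absolute log2 difference of the 10 genes was 0.06, beside 0.11 over all tested genes. The widest was that of Dnm1l, 0.11 (95% interval -0.02 to 0.24, adjusted p = 0.567), so for these genes a difference larger than about 1.18-fold lies outside the interval. Trak2 (-0.10, interval -0.22 to 0.01, adjusted p = 0.535) and Trak1 (-0.07, interval -0.18 to 0.04) were lower in MitoPositive than MitoNegative cells in 3 of 3 letters, and Mfn2 (0.08, interval -0.05 to 0.21) was higher in 3 of 3 letters. Fis1 (-0.06, interval -0.22 to 0.10) was also lower in 3 of 3 letters, though its groups overlapped. In Trak2, Trak1 and Mfn2 the libraries of the sorted groups did not overlap. How many of all tested genes separate the sorted groups in this way, or keep their sign in 3 of 3 letters, was not counted. Neither was it counted for the comparisons with monoculture. The letters pair the libraries of these groups, and a fit of the 6 sorted libraries alone with the letter as a block called Trak2 (-0.10 ± 0.0323, adjusted p = 0.0457), in a fit that called 18.2% of its 15431 genes. With the block over all 9 libraries Trak2 had an adjusted p = 0.382. Over the 17 alternative fits no other gene of the 10 passed between these groups. Trak2 aside, the lowest adjusted p over those fits was 0.0759 for Mfn2, 0.0778 for Dnm1l and at least 0.179 for the rest.

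Against monoculture the genes moved in both directions, and by small amounts. In MitoPositive cells 5 of the 10 genes were called, in a comparison that called 42.2% of all tested genes. Mfn1, Mfn2 and Rhot1 rose (22.3% of tested genes were called higher), and Rhot2 and Trak2 fell (19.9% were called lower). In MitoNegative cells 4 of the 10 were called, where 38.9% of tested genes were. Mfn1 and Rhot1 rose (20.6% of tested genes were called higher), and Rhot2 and Trak2 fell (18.3% were called lower). The median absolute log2 change of the 10 genes was 0.19 in MitoPositive and 0.12 in MitoNegative cells, beside 0.29 and 0.27 over all tested genes. The shares of genes called are near those of all tested genes, and the median changes are smaller than those of all tested genes. Both comparisons use the same 3 monoculture libraries, so they are not independent of each other. The stromal and B-cell markers given above move with these comparisons (13 of 14 tested stromal markers were called higher and 5 of 7 B-cell markers lower in each), as do 7 of the 10 CD8+ T-cell markers in MitoPositive and 8 in MitoNegative cells, which were called lower, and their part in the results was not tested. In bulk RNA, fewer cells of a type and less RNA per cell cannot be told apart.

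**Figure D1:**
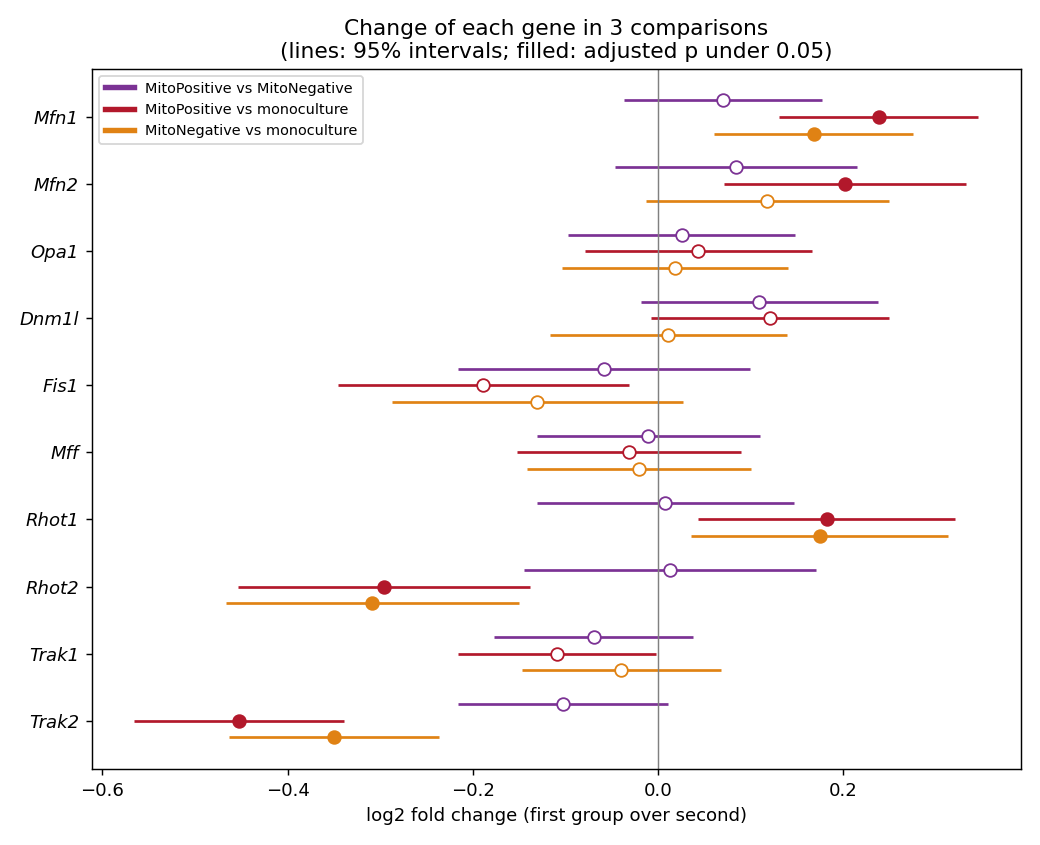
Log2 fold change of each of the 10 genes (rows) in 3 comparisons, given as first group over second, with lines for 95% intervals and filled points for an adjusted p under 0.05. All 10 intervals of MitoPositive against MitoNegative (top line of each row) include 0, while Trak2 lies at -0.45 and -0.35 and Mfn1 at 0.24 and 0.17 against monoculture.

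The 4 genes called in both comparisons with monoculture were Mfn1, Rhot1, Rhot2 and Trak2, and the 250 bases before the start site of each are shown because they moved in opposite directions and include both Miro genes. The sequences are RefSeq promoters in GRCm38.p6, written 5′ to 3′ on the strand of the gene. They are chr3:32529232-32529481 (plus strand) for Mfn1, chr11:80208801-80209050 (plus strand) for Rhot1, chr17:25844526-25844775 (minus strand) for Rhot2 and chr1:58973483-58973732 (minus strand) for Trak2. Capitals mark every match, on either strand, to 8 short motifs: the core of the NRF-1 site (TGCGCA), the ETS core bound by GABPA (CCGGAAG), the YY1 core (AAGATGG), the E-box (CACGTG), the CRE (TGACGTCA), the CCAAT box (CCAAT), the GC box (GGGCGG) and the TATA box (TATAAA).
Mfn1: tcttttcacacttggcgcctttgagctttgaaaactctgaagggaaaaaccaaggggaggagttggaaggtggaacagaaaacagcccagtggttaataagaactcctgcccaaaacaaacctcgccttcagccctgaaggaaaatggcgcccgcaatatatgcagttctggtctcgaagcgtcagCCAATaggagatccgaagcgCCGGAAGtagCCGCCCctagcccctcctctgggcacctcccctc
Rhot1: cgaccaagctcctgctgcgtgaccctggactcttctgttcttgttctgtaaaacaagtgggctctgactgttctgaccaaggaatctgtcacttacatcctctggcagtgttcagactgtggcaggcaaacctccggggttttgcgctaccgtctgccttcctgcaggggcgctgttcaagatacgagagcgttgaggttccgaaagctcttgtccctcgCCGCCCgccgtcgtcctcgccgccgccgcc
Rhot2: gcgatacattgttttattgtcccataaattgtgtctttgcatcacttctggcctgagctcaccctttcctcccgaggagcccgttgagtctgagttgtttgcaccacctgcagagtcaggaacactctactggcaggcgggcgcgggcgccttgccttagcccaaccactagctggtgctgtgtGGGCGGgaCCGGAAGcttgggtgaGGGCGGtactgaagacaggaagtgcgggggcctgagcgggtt
Trak2: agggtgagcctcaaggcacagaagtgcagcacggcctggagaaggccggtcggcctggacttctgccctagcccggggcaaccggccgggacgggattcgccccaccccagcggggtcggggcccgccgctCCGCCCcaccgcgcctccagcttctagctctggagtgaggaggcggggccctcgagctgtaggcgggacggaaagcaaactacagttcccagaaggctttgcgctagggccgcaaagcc

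In Mfn1, which rose, the CCAAT box lies at positions -64 to -60, the ETS core at -44 to -38 and the GC box, on the reverse strand, at -34 to -29, counted from the start base as 0. Rhot1, which also rose, has a reverse GC box at -30 to -25, and another at -2 to 3 that crosses the start and is not in capitals. Rhot2, which fell, has GC boxes at -66 to -61 and -42 to -37 around an ETS core at -58 to -52. Trak2, which fell most, has a reverse GC box at -119 to -114. No matches overlapped in these 4 windows. The letters therefore do not divide the genes by direction: each of the 4 holds a GC box, and the ETS core occurs in Mfn1, which rose, and in Rhot2, which fell. The 10 genes have 18 RefSeq windows, each of 300 bases from 250 before to 50 after a start. A GC box occurred in 14 windows (77.78%), against 35.66% of 32851 promoters of the genome. All 10 genes held it in at least 1 window. Windows of a gene can overlap, and the same GC box counts in both windows of Mff. The ETS core occurred in 5 windows of 4 genes (Mfn1, Rhot2, Dnm1l and Fis1; 8.86% of all promoters) and the NRF-1 core in 2, those of Opa1 and Fis1 (7.76%). The CCAAT box occurred in 6 windows (37.41% of all promoters) and the CRE in 1, that of Trak1 (1.79%). No window held the YY1 core, the E-box or the TATA box, which 6.34%, 7.15% and 13.62% of all promoters held. Over their 300 bases the GC content of the windows was 55.3% for Mfn1, 62.7% for Rhot1, 60.0% for Rhot2 and 67.7% for Trak2, beside a median of 52.7% over all promoters. A match describes letters only. GENCODE M21 places the 5′ end of Rhot2 at 25844851, so the printed window of Rhot2 lies inside the extent of the gene in that annotation.

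Among the fusion genes, the mitofusins were higher in co-cultured cells and Opa1 was not called. Mfn1 (ENSMUSG00000027668.13, chr3:32529465-32579239 in GRCm38, plus strand), which tethers outer membranes, had 52.7, 55.7 and 54.7 CPM in MitoPositive B, C and D, 53.1, 50.9 and 51.4 CPM in MitoNegative, and 46.1, 45.9 and 46.3 CPM in monoculture. Every co-cultured library lay above every monoculture library, and the 3 monoculture libraries differed by less than 1 CPM. Mfn1 rose 1.18-fold in MitoPositive cells (log2 0.24 ± 0.0492, adjusted p = 0.00218) and 1.12-fold in MitoNegative cells (0.17 ± 0.0492, adjusted p = 0.018). The rise in MitoNegative cells was not called without MitoNegative B (adjusted p = 0.0558), nor in the fit of those 6 libraries alone with the letter as a block (adjusted p = 0.0746).

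Mfn2 (ENSMUSG00000029020.13, chr4:147873599-147904704, minus strand), which also acts where mitochondria touch the endoplasmic reticulum, had 81.1, 84.3 and 82.8 CPM in MitoPositive B, C and D, 79.0, 78.3 and 76.9 CPM in MitoNegative, and 74.3, 65.8 and 75.6 CPM in monoculture. The 3 groups stood in this order without overlap, with monoculture C well below its group. Mfn2 rose in MitoPositive cells (log2 0.20 ± 0.0599, adjusted p = 0.0174). That call was lost without MitoPositive C (adjusted p = 0.0632) or without monoculture C (log2 0.14, adjusted p = 0.0617). In MitoNegative cells its log2 change was 0.12 (interval -0.01 to 0.25, adjusted p = 0.144), which did not pass.

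Opa1 (ENSMUSG00000038084.16, chr16:29579334-29654884, plus strand) had 81.5, 85.5 and 86.9 CPM in MitoPositive B, C and D, 81.7, 81.9 and 85.9 CPM in MitoNegative, and 86.8, 80.4 and 79.2 CPM in monoculture. The 3 groups overlapped, and monoculture B was about as high as the highest co-cultured library. The log2 change was 0.04 in MitoPositive (interval -0.08 to 0.17) and 0.02 in MitoNegative cells (interval -0.10 to 0.14) against monoculture.

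Among the fission genes none was called in any of the 3 comparisons. Dnm1l (ENSMUSG00000022789.15, chr16:16312230-16358959, minus strand), the gene of the fission GTPase DRP1, had 82.1, 78.6 and 76.5 CPM in MitoPositive B, C and D, 71.5, 70.7 and 77.7 CPM in MitoNegative, and 73.7, 75.2 and 69.4 CPM in monoculture. The MitoPositive libraries lay above all monoculture libraries, and MitoNegative libraries overlapped both groups. Its log2 change against monoculture was 0.12 in MitoPositive (interval -0.01 to 0.25, adjusted p = 0.122) and 0.01 in MitoNegative cells (interval -0.12 to 0.14). The noncoding gene Gm49521 lies antisense to 4.67% of its exon bases and had at most 16 reads in a library.

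Fis1 (ENSMUSG00000019054.13, chr5:136953275-136966234, plus strand), which encodes a small outer-membrane fission protein, had 99.7, 110.8 and 102.5 CPM in MitoPositive B, C and D, 108.7, 113.0 and 104.1 CPM in MitoNegative, and 113.1, 112.3 and 131.3 CPM in monoculture. MitoPositive libraries lay below all monoculture libraries, by little for C, and monoculture D stood above the rest. The log2 change in MitoPositive cells was -0.19 ± 0.0719 (interval -0.35 to -0.03), and its adjusted p = 0.0529 just missed the threshold. It passed in 6 of 17 alternatives, among them without MitoPositive C (adjusted p = 0.0455), monoculture B (0.0481) or monoculture C (0.0403). In MitoNegative cells the log2 change was -0.13 (interval -0.29 to 0.03, adjusted p = 0.177).

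Mff (ENSMUSG00000026150.14, chr1:82724890-82752394, plus strand), a receptor for DRP1, had 76.3, 81.0 and 80.2 CPM in MitoPositive B, C and D, 81.2, 77.4 and 80.6 CPM in MitoNegative, and 79.3, 78.0 and 85.4 CPM in monoculture. The 3 groups were interleaved, with monoculture D highest. Its log2 changes against monoculture were -0.03 in MitoPositive (interval -0.15 to 0.09) and -0.02 in MitoNegative cells (interval -0.14 to 0.10), and neither passed. The MitoPositive sign turned with total counts as the scale or without monoculture D, and the MitoNegative sign without MitoNegative C or monoculture D.

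**Figure D2:**
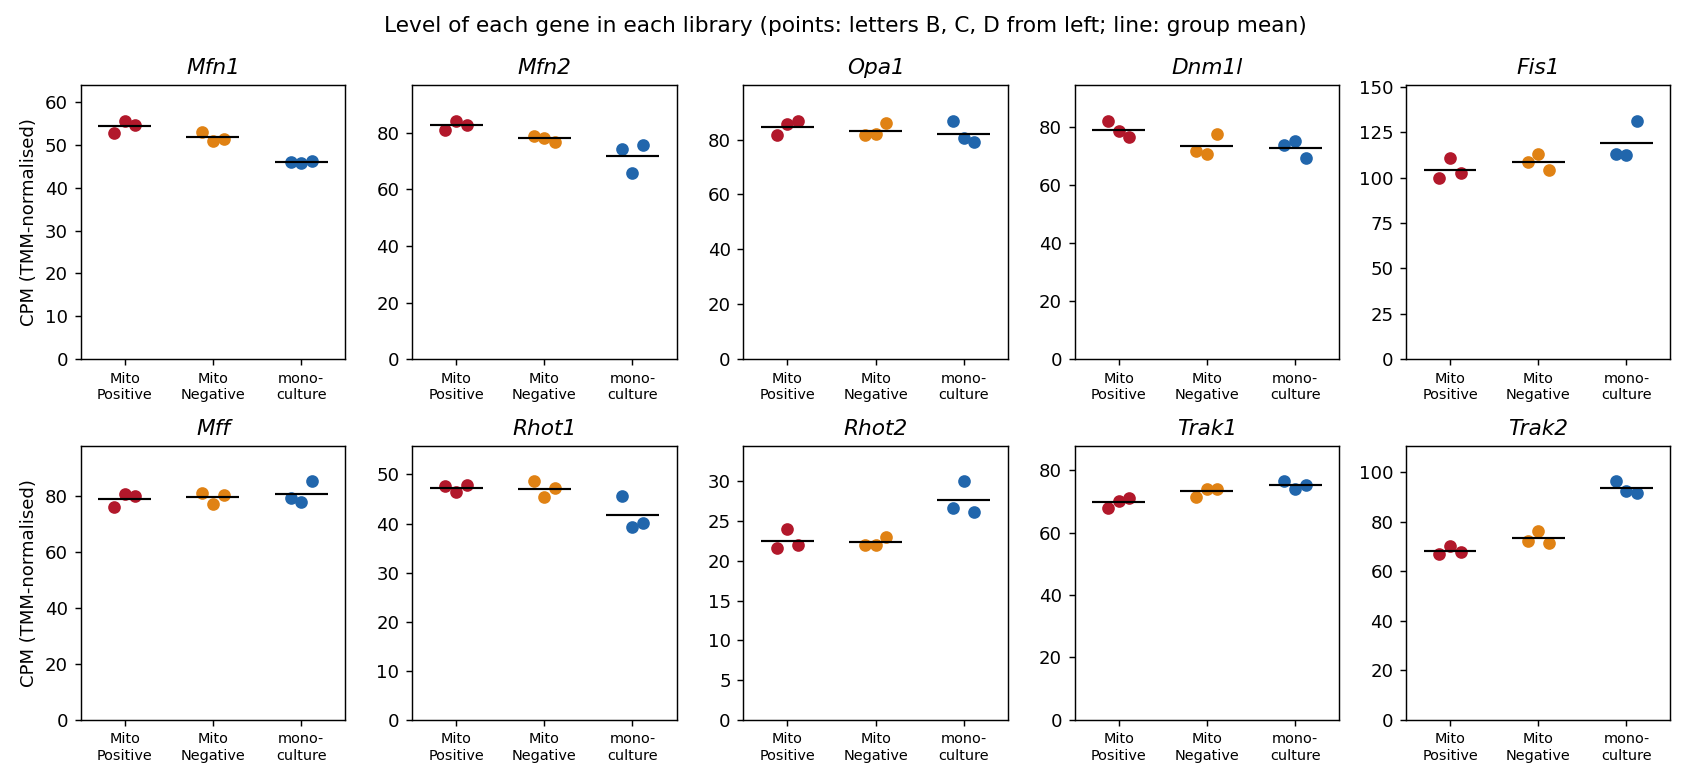
CPM (vertical axes, from 0) of each of the 10 genes in each of the 9 libraries, with letters B, C and D from left to right in a group and a line at the group mean. Trak2 and Rhot2 libraries of both co-cultured groups sit below all monoculture libraries and Mfn1 libraries above them, while Opa1 and Mff groups overlap.

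The Miro genes moved in opposite directions. Rhot1 (ENSMUSG00000017686.17, chr11:80209019-80267907, plus strand), which encodes Miro1, had 47.7, 46.5 and 47.8 CPM in MitoPositive B, C and D, 48.6, 45.4 and 47.2 CPM in MitoNegative, and 45.6, 39.4 and 40.1 CPM in monoculture. Monoculture B was close to the co-cultured libraries and above MitoNegative C, so MitoNegative and monoculture overlapped, while all MitoPositive libraries lay above monoculture. Rhot1 rose 1.13-fold in MitoPositive cells (0.18 ± 0.0635, adjusted p = 0.0371) and 1.13-fold in MitoNegative cells (0.17 ± 0.0635, adjusted p = 0.0476). Both calls are close to the threshold. The MitoPositive call was kept in 11 of 17 alternatives and lost without MitoPositive B (adjusted p = 0.0933), C (0.0682) or D (0.0899) and without monoculture C (0.132) or D (0.0739). The MitoNegative call was kept in 2 of 17, with the letter as a block over all libraries (adjusted p = 0.0242) and without monoculture B (0.00878), and lost without any other library (adjusted p 0.0571 to 0.161).

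Rhot2 (ENSMUSG00000025733.17, chr17:25838457-25844851, minus strand), which encodes Miro2, had 21.5, 24.02 and 21.97 CPM in MitoPositive B, C and D, 21.97, 21.995 and 22.9 CPM in MitoNegative, and 26.7, 29.98 and 26.2 CPM in monoculture. All 6 co-cultured libraries lay below the 3 monoculture libraries. Rhot2 fell 1.23-fold in MitoPositive cells (-0.30 ± 0.0723, adjusted p = 0.0061) and 1.24-fold in MitoNegative cells (-0.31 ± 0.0722, adjusted p = 0.00541), and both calls held in 17 of 17 alternatives. Its exons overlap other genes on the same strand over 31.25% of their bases: Gm20683 shares 1307 bases and had 0 to 2 reads in a library, and Wdr90 shares 81 bases. Wdr90 was not called in MitoPositive (0.32, adjusted p = 0.155) or in MitoNegative cells (0.25, adjusted p = 0.287) against monoculture. The treatment of reads in shared exons is not given in the sources used here. The level of Rhot2 is for that reason less certain than those of the other members.

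The TRAK adaptors held the largest change of the 10 genes. Trak2 (ENSMUSG00000026028.12, chr1:58900449-58973430, minus strand), an adaptor between Miro and motor proteins, had 66.8, 70.2 and 68.0 CPM in MitoPositive B, C and D, 72.4, 76.3 and 71.6 CPM in MitoNegative, and 96.4, 92.7 and 91.6 CPM in monoculture. The 3 groups did not overlap, and the lowest monoculture library stood more than 15 CPM above the highest co-cultured library. Trak2 fell 1.37-fold in MitoPositive cells (-0.45 ± 0.0519, adjusted p = 3.62e-05) and 1.27-fold in MitoNegative cells (-0.35 ± 0.0518, adjusted p = 0.000294). Both calls held in 17 of 17 alternatives, with log2 changes of -0.47 to -0.42 and of -0.37 to -0.33.

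Trak1 (ENSMUSG00000032536.12, chr9:121297502-121474918, plus strand), the paralog that in neurons serves transport along axons, had 67.7, 70.3 and 71.2 CPM in MitoPositive B, C and D, 71.5, 74.0 and 74.0 CPM in MitoNegative, and 76.4, 74.1 and 75.2 CPM in monoculture. The groups stood in the same order as for Trak2 without overlap. But the gaps from MitoPositive to MitoNegative and from MitoNegative to monoculture were each under 1 CPM. The log2 change was -0.11 in MitoPositive (interval -0.22 to -0.0023, adjusted p = 0.0935) and -0.04 in MitoNegative cells (interval -0.15 to 0.07, adjusted p = 0.565), and neither passed.

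These opposite or unequal changes altered the balance between paralogs, which was compared per kilobase of exon within each library. Rhot1 over Rhot2 was 1.33, 1.16 and 1.30 in MitoPositive B, C and D, 1.32, 1.24 and 1.23 in MitoNegative, and 1.02, 0.787 and 0.918 in monoculture. The ratio averaged 1.26 ± 0.0897 in MitoPositive cells, 1.26 ± 0.052 in MitoNegative cells and 0.910 ± 0.119 in monoculture cells (SD, n = 3 each), and both co-cultured groups lay above monoculture without overlap. The summed length-scaled level of the Miro genes was 11.4 ± 0.205, 11.4 ± 0.257 and 11.8 ± 0.465 CPM per kilobase in the same groups, and these overlapped. So the ratio separated both co-cultured groups from monoculture, but not from each other. With Rhot2 scaled to the 3054 exon bases that it shares with no other gene, a choice made after seeing the data, the ratio was 0.868 ± 0.0617 in MitoPositive, 0.870 ± 0.0358 in MitoNegative and 0.625 ± 0.0818 in monoculture. The co-cultured groups again lay above monoculture without overlap, but below 1. On that scale the sum was 13.5 to 14.1 CPM per kilobase in MitoPositive, 13.3 to 13.9 in MitoNegative and 13.99 to 15.1 in monoculture, so MitoNegative no longer overlapped monoculture and the comparison of sums rests on the length used.

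For the TRAK adaptors both the ratio and the sum differed from monoculture. Trak1 over Trak2 was 0.575 ± 0.0135 in MitoPositive and 0.563 ± 0.0183 in MitoNegative against 0.454 ± 0.00823 in monoculture, where the highest library, at 0.463, lay below the lowest co-cultured one, at 0.548. Their summed level was 15.2 ± 0.345 CPM per kilobase in MitoPositive, 16.2 ± 0.409 in MitoNegative and 19.2 ± 0.428 in monoculture. For the mitofusins Mfn2 over Mfn1 stayed at 1.79 ± 0.0169 in MitoPositive, 1.77 ± 0.032 in MitoNegative and 1.84 ± 0.129 in monoculture, with overlap, and their sum was 24.8 ± 0.554, 23.5 ± 0.349 and 21.4 ± 1.06 CPM per kilobase. Ratios and sums are descriptions of the same counts as the tests above and were not tested themselves. The paralogs differ enough for their reads to be told apart: over the longest open reading frames, 67.9% of aligned bases were identical between Mfn1 and Mfn2, 63.3% between Rhot1 and Rhot2 and 61.8% between Trak1 and Trak2.

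**Figure D3:**
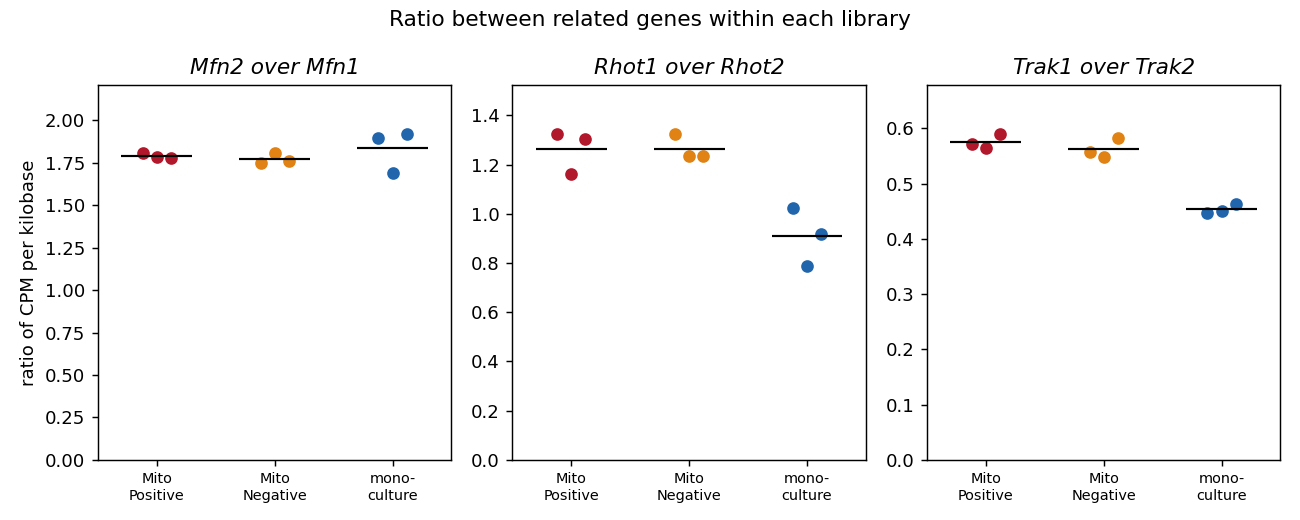
Ratio of CPM per kilobase of exon between related genes (vertical axes, from 0) in each library, with letters B, C and D from left to right in a group and a line at the group mean. Rhot1 over Rhot2 and Trak1 over Trak2 lie higher in all 6 co-cultured libraries than in the 3 monoculture libraries, while Mfn2 over Mfn1 overlaps between groups.

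Among the 10 genes, Fis1 had by far the highest length-scaled level, at 60.9 ± 3.38 CPM per kilobase in MitoPositive, 63.4 ± 2.60 in MitoNegative and 69.4 ± 6.29 in monoculture. Its annotated exons span 1714 bases, the shortest of the 10, against 12568 for Trak1. Mfn2 and Dnm1l followed, at 15.9 and 15.2 CPM per kilobase in MitoPositive cells, 15.03 and 14.1 in MitoNegative cells and 13.8 and 13.98 in monoculture cells, and these neighbours overlapped in each group. Trak2, at 13.2 CPM per kilobase, came next in monoculture and overlapped Mfn2. In co-cultured cells it stood below Opa1, at 9.65 CPM per kilobase in MitoPositive and 10.4 in MitoNegative, where it overlapped Opa1. Mfn1 and Mff came next, with Mfn1 above Mff in both co-cultured groups and below it in monoculture. The lowest 3 were Rhot1, Trak1 and Rhot2: Rhot2 was last in MitoPositive (5.07 CPM per kilobase, overlapping Trak1) and MitoNegative cells (5.02), and Rhot1 was last in monoculture (5.63), where the 3 genes overlapped. Over its unshared exon bases the reads of Rhot2 would, if none fell in the shared bases, give 7.37 ± 0.432 CPM per kilobase in MitoPositive, 7.30 ± 0.182 in MitoNegative and 9.04 ± 0.675 in monoculture, which would place it above Rhot1 in all groups, so its rank rests on how shared exons were counted.

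**Figure D4:**
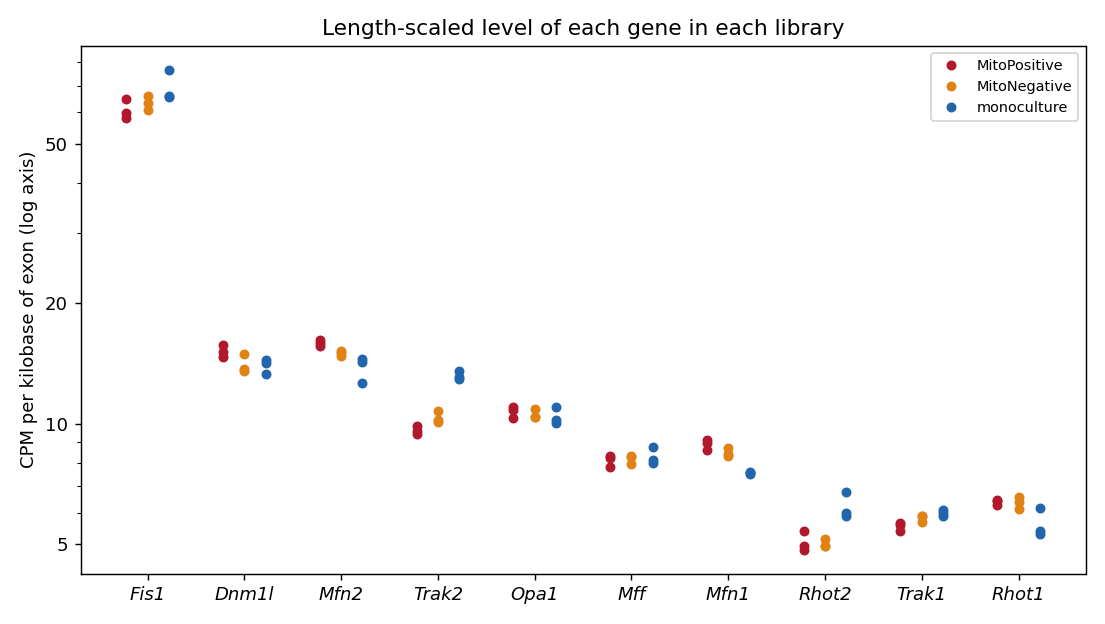
CPM per kilobase of exon (vertical log axis) of each gene in each library, with genes ordered by their monoculture mean and MitoPositive, MitoNegative and monoculture libraries from left to right for each gene. Fis1 lies above 55 in every library, and Trak2 is the gene whose monoculture libraries stand farthest above its co-cultured ones.

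Transcripts of fusion partners and of OPA1 processing showed small changes. Of 13 tested genes of the list of fusion partners and OPA1 processing, 4 rose and 1 fell in MitoPositive cells against monoculture (median log2 change 0.10), and 2 rose in MitoNegative cells (median 0.02). Over all tested genes 22.3% were called higher and 19.9% lower in MitoPositive cells, and 20.6% higher and 18.3% lower in MitoNegative cells, and the counts of each list below stand against these shares. Stoml2, a scaffold of the inner membrane, rose in MitoPositive cells (0.31 ± 0.0632, 59.0 against 47.4 CPM, adjusted p = 0.00188). March5, an outer-membrane ubiquitin ligase that acts on fusion and fission proteins, rose in MitoPositive (0.25 ± 0.0628, adjusted p = 0.00722) and MitoNegative cells (0.34 ± 0.0627, adjusted p = 0.00128). Afg3l2, a subunit of an inner-membrane protease, rose in MitoPositive (0.23 ± 0.054) and MitoNegative cells (0.16 ± 0.054). The MitoNegative call was lost without MitoNegative B or C or monoculture B or C (adjusted p up to 0.102). In the 6 libraries of that comparison alone it was lost with the letter as a block (adjusted p = 0.101) and without the block. That call of Afg3l2 was also lost with no filter. Spg7, its partner subunit, rose in MitoPositive cells (0.16 ± 0.0523, adjusted p = 0.0243), a call lost without MitoPositive B or C or monoculture B (adjusted p up to 0.0833). The gene that fell, Slc25a46, an outer-membrane carrier-like protein (-0.15 ± 0.0561, adjusted p = 0.0447), kept its call in 5 of 17 alternatives and lost it without any library other than monoculture C.

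The fission partners held the largest changes near the 10 genes. Of 15 tested genes of this list, 7 rose and 2 fell in MitoPositive cells (median 0.17), and 8 rose and 3 fell in MitoNegative cells (median 0.32), against monoculture. Spire1, an actin nucleator with an isoform on mitochondria, stood at 11.6 ± 0.365 CPM in MitoPositive, 7.90 ± 0.109 CPM in MitoNegative and 3.71 ± 0.32 CPM in monoculture, and rose in MitoPositive (1.65 ± 0.101, adjusted p = 3.53e-07) and MitoNegative cells (1.09 ± 0.1, adjusted p = 1.02e-05). The dynamins Dnm1 and Dnm3, best known from endocytosis in nerve cells, were low in all groups: Dnm1 averaged 2.83 CPM in MitoPositive and 2.42 CPM in MitoNegative against 0.116 CPM in monoculture, where it had 6 to 9 reads, and Dnm3 averaged 2.25 and 2.08 CPM against 0.204 CPM. Dnm1 rose in MitoPositive (4.59 ± 0.291) and MitoNegative cells (4.36 ± 0.291), and Dnm3 in MitoPositive (3.45 ± 0.233) and MitoNegative cells (3.34 ± 0.233). In the same comparisons 13 of 14 tested stromal markers were called higher (median log2 change 7.52 in MitoPositive and 7.12 in MitoNegative cells). The part of stromal RNA in the reads of Dnm1 and Dnm3 was not tested. The ubiquitous dynamin Dnm2 fell, with 239 ± 12.9 CPM in MitoPositive and 249 ± 7.78 CPM in MitoNegative against 299 ± 15.6 CPM in monoculture (-0.32 ± 0.0632 and -0.26 ± 0.0631). Akap1, an outer-membrane anchor of protein kinase A, rose in MitoPositive (0.70 ± 0.0764) and MitoNegative cells (0.42 ± 0.0764), and Sh3glb1, a membrane-bending endophilin, rose in both (0.44 ± 0.0655 and 0.52 ± 0.0655). Mtfr2, a fission regulator near 1 CPM in co-culture, fell in MitoPositive (-0.99 ± 0.354, adjusted p = 0.0433) and MitoNegative cells (-1.08 ± 0.355, adjusted p = 0.0324), with overlap of the groups. Its MitoPositive call was lost without any 1 of 6 libraries, MitoPositive B and C, MitoNegative B and C and monoculture C and D (adjusted p up to 0.138), and its MitoNegative call without MitoNegative B or C or monoculture C or D (up to 0.111). With no filter both calls of Mtfr2 were lost, and with total counts the MitoPositive one. Slc25a46, Dnm2, Akap1, Sh3glb1, Inf2, Dctn1, Cenpf and, for MitoPositive cells, Kif1bp were named after their values were seen.

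Most genes of motor proteins and other anchors were not called. Of 22 tested genes, 6 rose and 1 fell in MitoPositive cells (median 0.10), and 4 rose and 1 fell in MitoNegative cells (median 0.06), against monoculture. Kif5b, the kinesin-1 heavy chain to which TRAK adaptors bind, stood at 212 ± 8.46 CPM in MitoPositive and 199 ± 3.75 CPM in MitoNegative against 172 ± 6.92 CPM in monoculture and rose in both (0.30 ± 0.0558, adjusted p = 0.00109, and 0.21 ± 0.0558, adjusted p = 0.0107). Klc2, a kinesin light chain, rose in MitoPositive (0.53 ± 0.0942) and MitoNegative cells (0.42 ± 0.0942), and Kif1b, a kinesin-3 motor, rose by 0.29 ± 0.0725 and 0.28 ± 0.0725. Mtx2, an outer-membrane metaxin, rose in MitoPositive cells (0.32 ± 0.0672), and Kif1bp, which binds kinesins, rose in MitoPositive (0.23 ± 0.0743, adjusted p = 0.0245) and MitoNegative cells (0.28 ± 0.0742, adjusted p = 0.0107). The MitoPositive call of Kif1bp was lost without MitoPositive C or D or monoculture C (adjusted p up to 0.0913). Cenpf, a protein of dividing cells that also binds Miro, had the widest differences of the list but did not pass: it averaged 9.33 ± 9.76 CPM in MitoPositive and 11.2 ± 7.79 CPM in MitoNegative against 28.9 ± 11.0 CPM in monoculture, with overlap (log2 -1.62, adjusted p = 0.186, and -1.37, adjusted p = 0.265). In MitoPositive cells it passed in 3 of 17 alternatives, limma voom and the fit without MitoPositive D among them, and in MitoNegative cells in 2, both with the block (adjusted p down to 0.00193). The gene that fell was Dctn1, the large dynactin subunit that links dynein to cargo (-0.19 ± 0.0589, adjusted p = 0.0217, in MitoPositive and -0.20 ± 0.0589, adjusted p = 0.0181, in MitoNegative cells). The MitoPositive call was lost without MitoPositive B or C or monoculture B (adjusted p up to 0.0862). It was also lost with total counts, with no filter and with the block in the 2 groups alone. The MitoNegative call was lost without MitoNegative B or monoculture B (up to 0.104) and with the block in the 6 libraries of that comparison alone (0.0725).

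Of 8 genes of the MICOS complex and cristae, Chchd6 rose in MitoPositive (0.86 ± 0.134) and MitoNegative cells (0.88 ± 0.134), Apoo rose in MitoPositive cells (0.52 ± 0.112), and Samm50 fell in MitoNegative cells (-0.19 ± 0.0623, adjusted p = 0.0332). The Samm50 call was lost without MitoPositive C, any MitoNegative library or monoculture D (adjusted p up to 0.118) and with the block in the 6 libraries compared (0.108). It was also lost with no filter and with those 6 libraries alone without the block. Of 12 genes that mark mitochondrial content, 1 rose and 1 fell in MitoPositive cells (median 0.10) and 2 rose and 1 fell in MitoNegative cells (median 0.06). Atp5a1, a subunit of ATP synthase, fell in MitoPositive (-0.33 ± 0.0843) and MitoNegative cells (-0.42 ± 0.0843). Tomm20, an import receptor, rose in MitoPositive (0.23 ± 0.0685, adjusted p = 0.0171) and MitoNegative cells (0.21 ± 0.0685, adjusted p = 0.0276), and Vdac2, an outer-membrane channel, in MitoNegative cells (0.24 ± 0.0765, adjusted p = 0.0259). The Tomm20 calls were lost without MitoPositive C or monoculture B or C (adjusted p up to 0.0828) and without MitoNegative B or C or monoculture B or C (up to 0.0943), the MitoNegative call also with the block in the 6 libraries compared (0.0664), and the Vdac2 call without the same 4 libraries (up to 0.102). With total counts as the scale, 4 genes of this list rose and 1 fell in MitoPositive cells. The share of all tested genes called on that scale is not given here.

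Between MitoPositive and MitoNegative cells edgeR called 0 genes in each of these 5 lists, where unadjusted p-values under 0.05 numbered, beside 10.5% of all tested genes, 3 of 13 fusion partners, 4 of 15 fission partners, 1 of 22 motors and anchors, 1 of 8 MICOS and cristae genes and 0 of 12 content genes. DESeq2 called 2 fission partners, Spire1 and Akap1, and limma voom called 1, Spire1, and both called 0 in the other 4 lists. Spire1 had a log2 difference of 0.56 ± 0.0965 (adjusted p = 0.0542) with 11.3 to 12.01 CPM in MitoPositive and 7.78 to 7.98 CPM in MitoNegative libraries, and passed in 8 of 17 alternatives, the fit without monoculture B and the fit without monoculture D included. With the letter as a block over all libraries 2 fission partners passed, Spire1 and Inf2, a formin at 76.9 CPM in MitoPositive against 94.6 CPM in MitoNegative cells (log2 difference -0.30, adjusted p = 0.241 without the block). How many of all tested genes DESeq2, limma voom and this block each called is given in the last section. The fit of the 6 sorted libraries alone with the block called 18.2% of its 15431 genes. Of the lists it called 4 of 13 fusion partners, 5 of 15 fission partners and 3 of 22 motors and anchors. It also called 1 of 8 MICOS and cristae genes and 4 of 12 content genes.

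**Figure D5:**
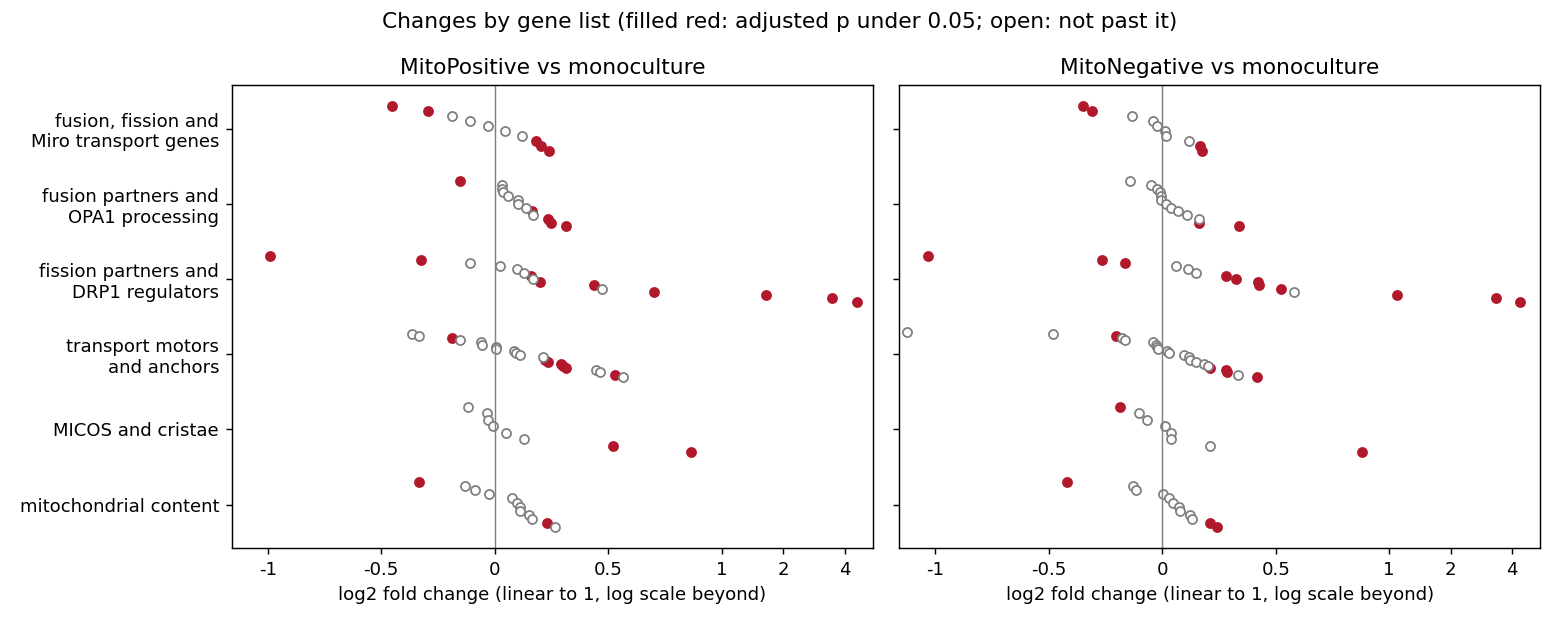
Log2 fold changes against monoculture (horizontal axis, linear to 1 and on a log scale beyond) of the 10 genes and of 5 lists of partner genes, for MitoPositive (left) and MitoNegative cells (right), with filled points for an adjusted p under 0.05. The 10 genes lie within -0.45 and 0.24, while Dnm1, Dnm3 and Spire1 of the fission partners lie above 1 in both panels. Mtfr2 lies at -0.99 and -1.08. Cenpf, which did not pass, lies at -1.37 in the right panel, and its value of -1.62 for MitoPositive cells falls outside the left panel.

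For the 3 genes with the largest change in MitoPositive cells against monoculture, the genes with the most similar profile were sought over the 9 libraries, by the root-mean-square difference of log2 CPM centred on each gene's mean, among 10616 genes with a mean log2 CPM of at least 1. Closest to Trak2 were Mepce (difference 0.0201), Emc8 (0.0252) and Smad4 (0.0292), which changed by -0.42, -0.41 and -0.46 in MitoPositive cells. Closest to Rhot2 were Wdr26 (0.0415), Msi2 (0.0467) and Slc35e3 (0.0502), and closest to Mfn1 were Aasdhppt (0.0236), Cox15 (0.0296) and Ubxn2a (0.0327). None of these 9 is among the 10 genes, and libraries of a group share its condition, so likeness follows the group means.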

How the data were processed

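RNA from 9 libraries was ribosome-depleted and built with the KAPA HyperPrep kit, per the labels' protocols. Per the submitters' processing notes, the build was GRCm38 and the tools included STAR 2.7 and featureCounts beside bcl2fastq, cutadapt and DESeq2. Which annotation release was used, and whether counting used strand, is not given in the sources used here. Reads of overlapping antisense genes therefore cannot be told apart. The deposited table holds raw counts per gene, including 99 spike-in rows with 0 counts, which were left out. The deposited annotation gives an exon length in bases (other), equal to the GENCODE M21 exon union for all 54673 shared identifiers; levels per kilobase used it. Columns outside the 9 libraries numbered 0.

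The 10 genes and all lists were chosen with earlier results of these data known. Counts were fitted in R 4.3.3 with edgeR 4.0.16 by robust quasi-likelihood, by group over 9 libraries (6 residual degrees of freedom), after filterByExpr (minimum count 10, minimum total 15) and TMM scaling. P-values were adjusted by Benjamini-Hochberg, with a threshold of 0.05. The filter kept at least 99.96% of counts per library. The fit was also run on simulated counts without a letter effect, a run that cannot speak to the pairing of libraries. Replicates of a group differed beyond sampling noise (chi-square per degree of freedom 16.4 to 57.7). Alternatives were DESeq2's size factors, total counts, no filter, DESeq2 1.42.0, limma 3.58.1 voom, fits of 2 groups, the replicate letter as a block and leaving out each library.

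Residuals of libraries with the same letter were correlated between MitoPositive and MitoNegative at 0.402, 0.339 and 0.459 (B, C, D) and between MitoNegative and monoculture at 0.213, 0.153 and 0.111, all above the threshold of 0.1, so the letters pair these libraries. Between MitoPositive and monoculture they were 0.248, 0.0521 and 0.163, which misses that threshold for C. Named were all 10 genes, up to 4 called genes of each list with the largest change per comparison, and the 3 genes most alike to each of 3 members. Sequences are RefSeq promoters in GRCm38.p6, with motifs found by exact match. All 10 genes were matched by symbol.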

Additional observations from a re-analysis of the deposited data

How the results depend on the processing

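Over 17 alternatives, Trak2 and Rhot2 were called lower than monoculture in all fits of both comparisons. Mfn1 was called higher in 17 for MitoPositive and 15 for MitoNegative, Mfn2 in 15 for MitoPositive, and Rhot1 in 11 for MitoPositive and 2 for MitoNegative. The number of genes called between MitoPositive and MitoNegative depended strongly on the fit: against 26, it was 15 with DESeq2's size factors, 14 with total counts, 171 without the filter, 418 with DESeq2, 65 with the 2 groups alone, 367 with the replicate block and 2810 with the block in the 2 groups alone. With limma voom it was 33. Leaving out single libraries gave 1 to 120 genes: 3, 1 and 105 when MitoPositive B, C or D was left out, 1, 1 and 13 for MitoNegative B, C or D, and 51, 10 and 120 for monoculture B, C or D. Of the 26 calls, 53.8% were higher in MitoPositive cells, against 66.7% with size factors and 71.4% with total counts. Of the 10 genes, 1 (Trak2) was called between these groups with the block in the 2 groups alone and 0 otherwise. For MitoNegative against monoculture that fit called 2 (Rhot2 and Trak2), and leaving out single libraries gave 2 to 4, with 2 without MitoNegative B. For MitoPositive against monoculture leaving out single libraries gave 4 to 6. The block changed no other call of the 10 genes in the comparisons where all letters passed the pairing threshold. For MitoPositive against monoculture, where letter C alone missed the pairing threshold, the block over 9 libraries called 6 of the 10. Fis1 (adjusted p = 0.0471) was the addition. Reversals were confined to changes near 0 that did not pass in any fit. Mff between MitoPositive and MitoNegative was 0.0051 with total counts, 0.0030 without the filter and -0.0278 to 0.0150 over single libraries left out, and against monoculture it was 0.0040 in MitoPositive with total counts, -0.0591 to 0.0199 over libraries left out, and in MitoNegative -0.0482 to 0.0297. Over libraries left out, Rhot2 was -0.0358 to 0.0432 and Rhot1 -0.0139 to 0.0320 between MitoPositive and MitoNegative, and Opa1 -0.0058 to 0.0584 and Dnm1l -0.0326 to 0.0446 in MitoNegative against monoculture. The cause of these shifts was not tested. Other scalings moved the median of all genes by at most 0.0339 (log2). The list counts under alternatives were chosen after seeing the data.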
